A study of Mus musculus with 2 samples.

Results

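The Hoxa cluster genes Hoxa2, Hoxa3, Hoxa5, Hoxa6, Hoxa7, Hoxa9, Hoxa10, Hoxa11 and Hoxa13 were compared between embryoid bodies grown from Elongin A-/- embryonic stem (ES) cells and from Elongin A+/+ ES cells. Embryoid bodies are aggregates in which ES cells differentiate. Members were the genes whose symbol stood alone for a probe in the platform annotation. All 9 were found, each with 1 probe, among 13697 genes named on the array. Both groups had been kept with 2 µM retinoic acid for 4 days in a medium with serum and N2 supplement, and no group without retinoic acid was analysed here. Each genotype was 1 array of 32440 probes, hybridised with labelled copies of total RNA. The labels name no ES cell line, clone or number of cultures, so effects of genotype, cell line, culture or hybridisation cannot be told apart. Elongin A is the large subunit of a factor that stimulates elongation by RNA polymerase II.

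Hox genes encode homeodomain transcription factors that give cells their position along the body axis. In mammals they lie in the Hoxa, Hoxb, Hoxc and Hoxd clusters, and genes at the same place in different clusters are paralogues with the same number. Low-numbered genes act in the hindbrain and neck and respond early to retinoic acid, while high-numbered genes act in the trunk, tail, limbs and urogenital tract. Retinoic acid receptors, caudal-type (CDX) factors, WNT and FGF signals and the MLL and Polycomb chromatin complexes are known regulators of the clusters.

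Every measured Hoxa gene had a lower intensity on the Elongin A-/- array under each of 4 scalings. Lower as well were 51.6% of all measured genes and 68.0% of those on chromosome 6. The margins differed widely along the cluster. Hoxa2 and Hoxa5 were lower by less than 1.5-fold, and Hoxa7 was 8.28-fold lower. Hoxa6, Hoxa9 and Hoxa10 were above the array median in Elongin A+/+ bodies only and so had to be lower. Hoxa11 and Hoxa13 were below the median on both arrays. Intensities are given after quantile normalisation, with the shared array median of 1.03 as the floor under which a probe was not taken as measured. Differences are log2 intensity of the Elongin A-/- array minus that of the Elongin A+/+ array, and a difference with 1 array under the floor is a bound, computed with that array set to the floor. With 1 array per genotype there was no replicate error and no test, and the error available was technical: log2 differences of different probes for 1 gene varied with an SD of 0.43 over 224 genes. The number of arrays limits the precision of every value below.

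The bases upstream of the Hoxa5, Hoxa6, Hoxa7 and Hoxa9 starts are shown because the differences of these genes were of unlike size. The Hoxa3 window, not printed, lies between those of Hoxa6 and Hoxa7 and held none of the letters searched. Each is the 250 bases before the RefSeq gene start in assembly GRCm38.p6, on the minus strand, written 5′ to 3′ in the direction of transcription. They lie at chr6:52204588-52204837 for Hoxa5, chr6:52208673-52208922 for Hoxa6, chr6:52218574-52218823 for Hoxa7 and chr6:52227371-52227620 for Hoxa9. Capitals mark matches to TTTATG, the core of CDX sites, or to the retinoic acid receptor half-sites AGGTCA and GGGTCA and AGTTCA and GGTTCA, searched on both strands.
Hoxa5: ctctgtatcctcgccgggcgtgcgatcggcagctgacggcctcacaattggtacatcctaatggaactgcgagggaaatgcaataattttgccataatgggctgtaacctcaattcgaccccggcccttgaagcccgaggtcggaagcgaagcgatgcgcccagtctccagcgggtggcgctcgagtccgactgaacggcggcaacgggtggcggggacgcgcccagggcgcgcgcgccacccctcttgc
Hoxa6: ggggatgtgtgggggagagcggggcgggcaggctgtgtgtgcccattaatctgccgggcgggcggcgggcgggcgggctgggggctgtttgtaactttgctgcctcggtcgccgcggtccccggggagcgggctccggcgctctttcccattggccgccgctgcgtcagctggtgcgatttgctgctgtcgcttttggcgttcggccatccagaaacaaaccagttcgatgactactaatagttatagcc
Hoxa7: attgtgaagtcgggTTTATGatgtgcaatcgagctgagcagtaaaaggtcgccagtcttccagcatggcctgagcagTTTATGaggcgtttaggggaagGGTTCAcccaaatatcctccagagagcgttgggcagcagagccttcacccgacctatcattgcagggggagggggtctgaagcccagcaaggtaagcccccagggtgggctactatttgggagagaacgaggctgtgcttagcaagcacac
Hoxa9: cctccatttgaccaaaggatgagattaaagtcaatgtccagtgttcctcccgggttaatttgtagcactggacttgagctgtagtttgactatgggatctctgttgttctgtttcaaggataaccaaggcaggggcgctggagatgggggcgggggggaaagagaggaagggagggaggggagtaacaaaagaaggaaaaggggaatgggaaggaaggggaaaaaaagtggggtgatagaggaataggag
The Hoxa7 window held TTTATG at 2 places, starting 236 and 173 bases before the start, and the half-site GGTTCA starting 151 bases before it. The windows of Hoxa5, Hoxa6 and Hoxa9 held none of these letters. Of all 32851 upstream windows of the same length, 10.8% held TTTATG or its complement, 1.02% held it at 2 or more places, and 38.6% held a half-site. Among the other members, matched by symbol to 1 window each and Hoxa10 to 2, Hoxa11 had 1 half-site and none had TTTATG. The HOX-PBX site TGATTNAT was found in the Hoxa2 window, as in 2.82% of windows, and TATAAA in a Hoxa10 window, as in 12.4%. No marked match overlapped another in these windows. The letters searched were chosen with the sequences in view, and a match is a description of the letters, not evidence of binding.

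The Hoxa5 and Hoxa6 windows had 28 and 24 CG dinucleotides and GC contents of 63.6% and 65.2%. The Hoxa7 and Hoxa9 windows had 7 and 3, with 54.8% and 49.6%, against a median GC content of 52.4% over all windows. The GC content stood nearer to that median at Hoxa7 and Hoxa9, but also at Hoxa2 (46.4%), whose difference was small. For Hoxa10, at least 2.63-fold lower, a window had 20 CG dinucleotides and 59.2%, and another had 7 and 51.6%. A relation between these contents and the differences was not tested.

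Among the anterior members, Hoxa2, which patterns the hindbrain and the neural crest of the second pharyngeal arch, had an intensity of 37.7 on the Elongin A-/- array, against 44.3 on the Elongin A+/+ array. The log2 difference was -0.23, inside the disagreement between probes. Hoxa3, needed for the thymus, parathyroid and neck, had 4.39 on the Elongin A-/- array, against 7.52 on the Elongin A+/+ array. Its difference was -0.78, or 1.72-fold lower, wider than the probe SD but short of 2-fold. In RefSeq the Hoxa3 gene span contains Hoxa4, Hoxa5 and Hoxa6, so the transcript its probe reads was not checked.

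Among the central members, Hoxa5, which acts in the lung and at the neck-to-thorax level of the skeleton, had 297.3 on the Elongin A-/- array, against 369.5 on the Elongin A+/+ array. The difference of -0.31 was inside the probe SD, for a probe far above the floor on both arrays. Hoxa6, a thoracic-level gene, had 0.837 on the Elongin A-/- array, under the floor, against 1.31 on the Elongin A+/+ array. It was at least 1.28-fold lower, a value so near the floor that its size carries little information.

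Hoxa7, a gene of the thoracic skeleton, was the member with the widest measured difference. Its intensity was 7.65 on the Elongin A-/- array, against 63.4 on the Elongin A+/+ array. Both values were above the floor, by 7.46 times in Elongin A-/- and 61.8 times in Elongin A+/+. The log2 difference of -3.05 was past the probe SD by a wide margin, and as deposited, before normalisation, the intensities were 8.06 and 61.7. Of 9568 measured genes, 14, Hoxa7 included, had a difference as low or lower, and of the 518 on chromosome 6 Hoxa7 alone did. The 3 genes with the nearest pair of log2 intensities over the 2 arrays were Igfbpl1 (7.12 in Elongin A-/-, 49.8 in Elongin A+/+), Tagln (8.29 and 41.4) and Olig3 (5.71 and 40.8). Their Euclidean distances were 0.36, 0.63 and 0.76 in log2 units, which describes 2 arrays only.

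The posterior members were dim. Hoxa9, a regulator of blood progenitors and of the posterior axis, had 0.398 on the Elongin A-/- array, under the floor, against 3.26 on the Elongin A+/+ array. It was therefore at least 3.18-fold lower. Hoxa10, which acts in the lumbar skeleton and the uterus, had 0.254 on the Elongin A-/- array, under the floor, against 2.70 on the Elongin A+/+ array, and was at least 2.63-fold lower. Both genes thus reached only about the level of dim probes in Elongin A+/+ bodies, and their bounds rest on the floor chosen. Hoxa11, a gene of the forearm and kidney, had 0.148 on the Elongin A-/- array and 0.647 on the Elongin A+/+ array. Hoxa13, a gene of digits and the hindgut, had 0.332 and 0.953 on the same arrays. Values under the floor have no order, so no difference is given for these last genes.

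**Figure D1:**
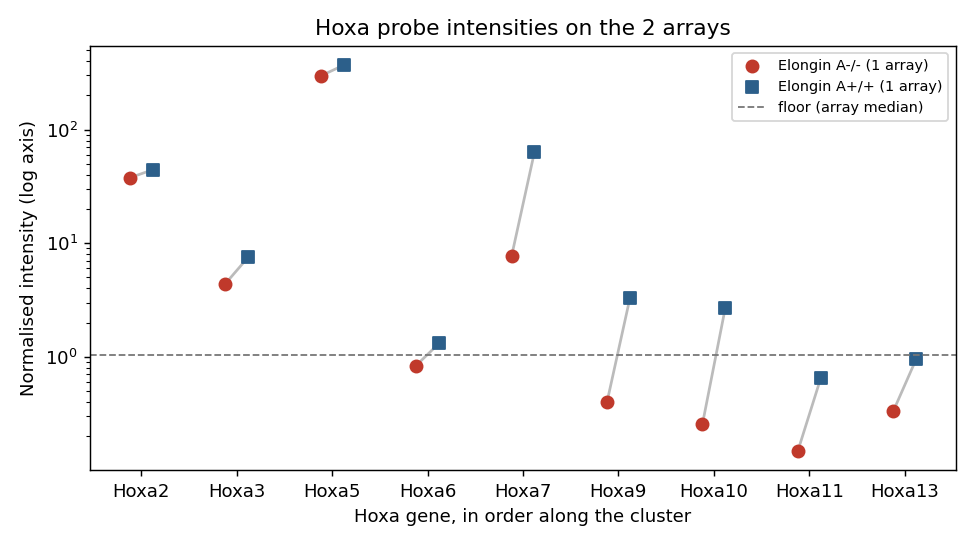
Normalised intensity (log axis) of each Hoxa probe, in order along the cluster, on the Elongin A-/- array (red circles) and the Elongin A+/+ array (blue squares), 1 array each; the dashed line is the floor at the array median and grey lines join the arrays. Hoxa7 has 7.65 in Elongin A-/- and 63.4 in Elongin A+/+, while Hoxa2 and Hoxa5 have nearly level pairs and Hoxa9 and Hoxa10 cross the floor.

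In whole embryoid bodies, fewer cells of a type and less RNA per cell cannot be told apart. Counted at a fixed size of 2-fold, 3 of the 7 measured members were lower in Elongin A-/- bodies and 0 were higher, where 5.97% of all measured genes were lower and 6.76% were higher. The members were Hoxa7, Hoxa9 and Hoxa10. That count is not support for a shift of the cluster, because Hoxa6, Hoxa9 and Hoxa10 passed the floor through the Elongin A+/+ array alone and so had to be lower. Of the 4 members above the floor on both arrays, which that rule did not sort, all were lower and 1, Hoxa7, by at least 2-fold. By comparison, 51.6% of all measured genes and 68.0% of those on chromosome 6 were below 0. Hoxa2 and Hoxa5, among the 4, were inside the probe SD. The background depended on brightness. Of measured genes whose brighter array was under 5.20, the 75th percentile, 8.60% were at least 2-fold lower, and of brighter ones 3.93%. Hoxa9 and Hoxa10 were in the dim class and Hoxa7 in the bright one. At 1.5-fold 4 members were lower, Hoxa3 included, beside 14.8% of all measured genes, and at 3-fold 2 were, Hoxa7 and Hoxa9, beside 1.86%. The median of the 7 measured members was -0.78, against -0.02 over all measured genes. It was -0.51 after the median of chromosome 6 was subtracted. The filter fixed the direction of Hoxa6, Hoxa9 and Hoxa10, so this median and the counts at 1.5-fold and 3-fold are no support for a shift either. Among genes at least 2-fold apart, 53.1% were higher in Elongin A-/- bodies, and 64.0% with the values as deposited.

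The genes around the cluster were lower as well. Of the 20 nearest genes with a named probe on chromosome 6, 10 on each side, 13 were measured, and all 13 were below 0 with a median of -0.49, although Hnrnpa2b1 turned to 0.09 with the values as deposited and to 0.02 with a loess trend removed. On the side of Hoxa2 the next gene with a named probe, Skap2, a signalling adaptor, had 65.3 on the Elongin A-/- array, against 123.2 on the Elongin A+/+ array. On the side of Hoxa13 the next gene with a named probe, Evx1, a homeobox gene, was below the floor on both arrays, with 0.805 in Elongin A-/- and 0.726 in Elongin A+/+. The widest differences among the neighbours were those of Chn2, a Rac GTPase-activating protein, with 1.14 in Elongin A-/- and 4.97 in Elongin A+/+, and Snx10, a sorting nexin, with 2.64 and 9.20. Hnrnpa2b1, an RNA-binding protein gene, was level at 439.6 and 443.7. At least 2-fold lower were 3 of the 13, against 11.2% of measured chromosome 6 genes. Of the neighbours measured, Jazf1, Creb5 and Tril had passed the floor through the Elongin A+/+ array alone.

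**Figure D2:**
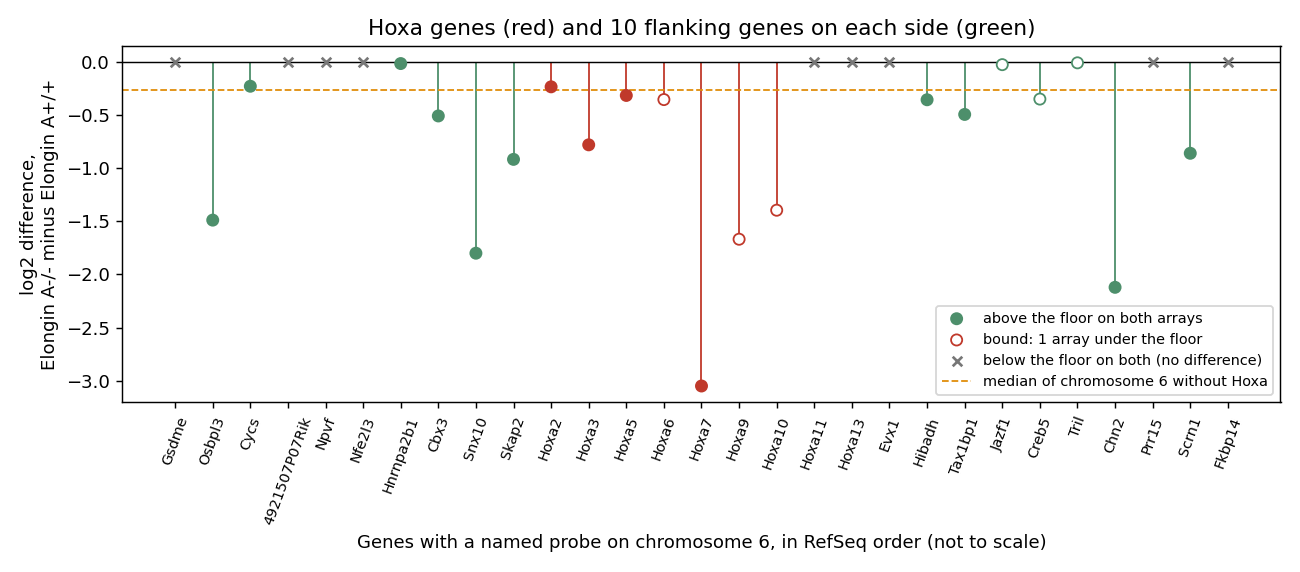
Log2 difference, Elongin A-/- minus Elongin A+/+, of the Hoxa genes (red) and of 10 named genes on each side (green) in RefSeq order along chromosome 6, spaced by order and not by distance; filled points were above the floor on both arrays, open points are bounds, crosses were below the floor on both, and the dashed line is the median of chromosome 6 without the Hoxa genes. Hoxa2, Hoxa5 and Hoxa6 lie near that line at -0.26, and Hoxa7 at -3.05 lies below every neighbour.

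Chromosome 6 as a whole had the lowest median of all chromosomes. Without the Hoxa members its 511 measured genes had a median of -0.26, and 67.5% of them were below 0, against 51.6% of all measured genes. In consecutive blocks of 40 measured genes (38 in the last) the median was below 0 in 12 of 13 blocks. Block medians ran between -0.40 and 0.00, and the block that holds the Hoxa cluster, the fourth, had -0.25. The shift was therefore spread along the chromosome and not limited to the Hoxa neighbourhood. After subtraction of the median of chromosome 6, Hoxa2 (0.03), Hoxa5 (-0.05) and the bound of Hoxa6 (-0.09) were close to 0. Hoxa3 then had -0.51, Hoxa10 -1.13, Hoxa9 -1.40 and Hoxa7 -2.79, so the same 3 genes kept a difference of at least 2-fold. The part of the chromosome in the Hoxa differences was not tested beyond this subtraction.

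**Figure D3:**
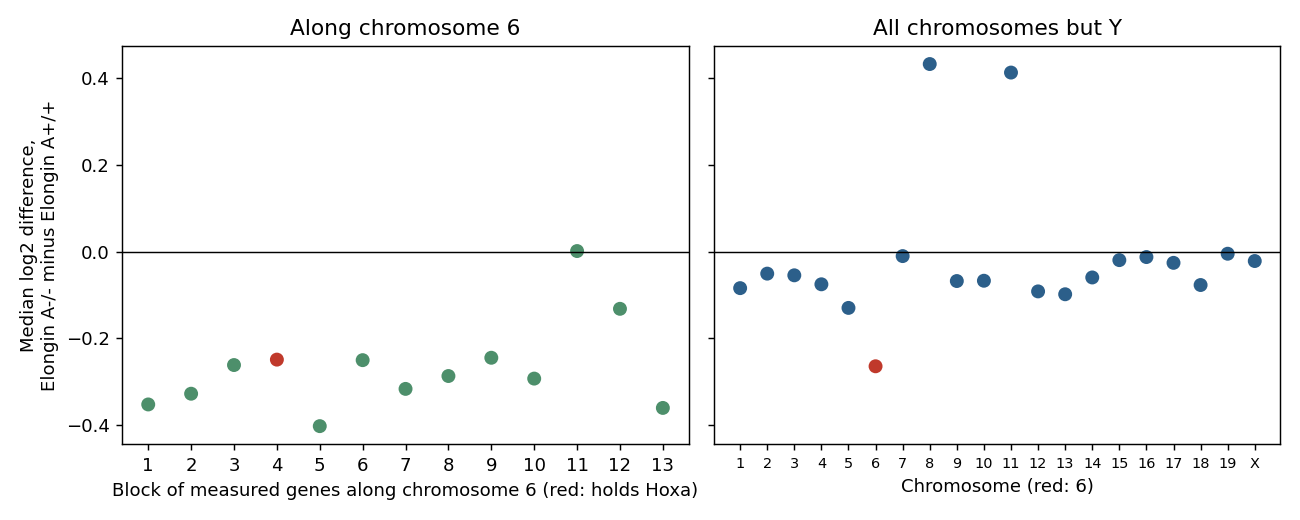
Median log2 difference, Elongin A-/- minus Elongin A+/+, over consecutive blocks of 40 measured genes along chromosome 6 (left; red is the block with the Hoxa cluster) and over each chromosome but Y (right; red is chromosome 6). Of the 13 blocks, 12 lie below 0, and chromosome 6 at -0.26 is the lowest while chromosomes 8 and 11 lie at 0.43 and 0.41.

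Paralogues in the other clusters were set beside each Hoxa gene. Hoxb2 was level, with 183.0 on the Elongin A-/- array and 183.1 on the Elongin A+/+ array, next to -0.23 for Hoxa2, and its sign depended on the scaling (0.11 as deposited). In group 3, Hoxb3 (6.69 and 5.51; 0.28) and Hoxd3 (20.8 and 18.4; 0.18) were slightly higher on the Elongin A-/- array, while Hoxa3 had -0.78. In group 5, Hoxb5 had 51.8 on the Elongin A-/- array, against 32.7 on the Elongin A+/+ array, and Hoxc5 had 17.0, against 9.25. Those differences were 0.66 and 0.88, opposite in sign to the -0.31 of Hoxa5. In groups 2, 3 and 5 Hoxa had the lowest difference of the paralogues measured.

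From group 6 on, the measured paralogues lay below 0 in every cluster under each of the 4 scalings. This division was made with the values in view, and Hoxa6, Hoxb8, Hoxc8, Hoxa9 and Hoxa10 passed the floor through the Elongin A+/+ array alone and had to be lower. In group 6, Hoxb6 had 181.1 on the Elongin A-/- array, against 202.9 on the Elongin A+/+ array, and Hoxc6 had 7.68, against 14.5. The difference of Hoxb6 was -0.16, and -0.04 as deposited, inside the probe SD, while that of Hoxc6 was -0.92. Hoxa7 had no measured paralogue in its own group, but the neighbouring group held Hoxc8, with 0.578 in Elongin A-/- and 27.4 in Elongin A+/+, and Hoxb8, with 0.749 and 1.73. In group 9 Hoxc9 (1.99 in Elongin A-/- and 87.0 in Elongin A+/+) and Hoxb9 (1.18 and 16.2) were lower by more than the bound of Hoxa9, and Hoxd9 (4.68 and 6.999) by less. All paralogues of group 9 were lower, by log2 differences of -5.45 for Hoxc9, -3.78 for Hoxb9, at most -1.67 for Hoxa9 and -0.58 for Hoxd9. Beyond group 9, Hoxa10 was the only named Hox gene above the floor on either array, as Hoxc10, Hoxc12, Hoxc13, Hoxd10 and Hoxd11 were below it on both, like Hoxa11 and Hoxa13.

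The clusters lie on chromosomes whose genes differed as a whole. The median was 0.41 on chromosome 11, which carries Hoxb, -0.02 on chromosome 15, which carries Hoxc, and -0.05 on chromosome 2, which carries Hoxd. After each chromosome's median was removed, Hoxb2 had -0.41 and Hoxb3 -0.13, so in group 2 Hoxb2 lay below the 0.03 of Hoxa2. In group 3 Hoxa3 (-0.51) still lay below Hoxb3 and Hoxd3 (0.23). In group 5 Hoxa5 (-0.05) still lay below Hoxb5 (0.25) and Hoxc5 (0.90). The remaining low-numbered genes, Hoxd1 (2.38 in Elongin A-/- and 11.8 in Elongin A+/+), Hoxb4 (260.4 and 153.6), Hoxc4 (11.1 and 8.63) and Hoxd4 (2.49 and 4.89), have no Hoxa partner here, and they lay on both sides of 0. Before chromosome medians were removed, Hoxd1 had -2.30, Hoxd4 -0.97, Hoxc4 0.36 and Hoxb4 0.76. Hoxd1 and Hoxd4 were thus lower by more than Hoxb6 (-0.16), Hoxd9 (-0.58) and Hoxc6 (-0.92) of the later groups.

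**Figure D4:**
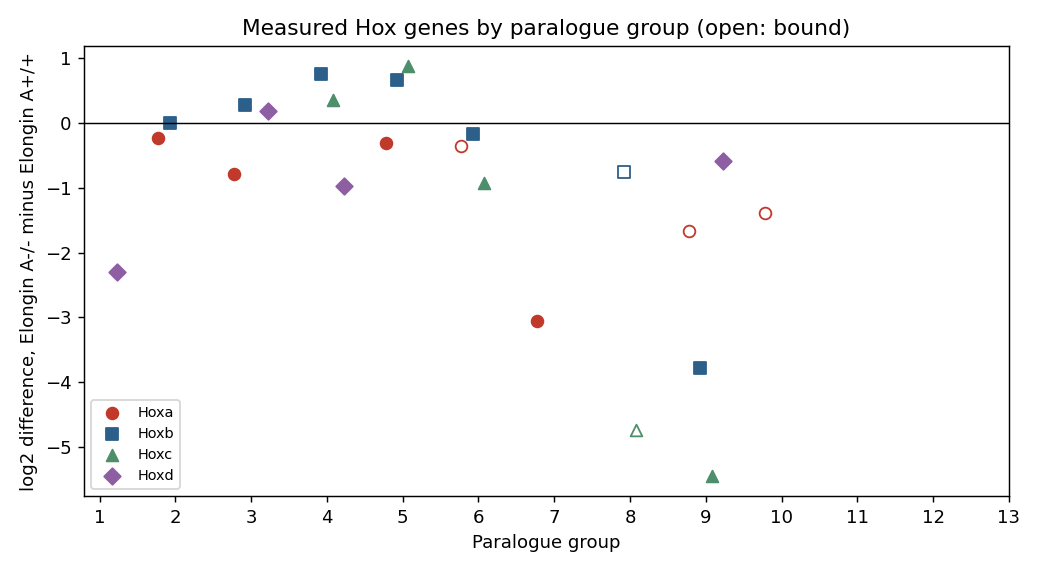
Log2 difference, Elongin A-/- minus Elongin A+/+, of each measured Hox gene by paralogue group, with Hoxa as red circles, Hoxb as blue squares, Hoxc as green triangles and Hoxd as purple diamonds; open symbols are bounds. Through group 5 the points lie on both sides of 0, from group 6 on all lie below 0, and no gene of groups 11 to 13 was measured.

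Known regulators and partners of Hox genes were described from lists. Of 9 genes for TALE homeodomain cofactors, which bind DNA together with HOX proteins, 6 were named and 4 measured, with none at least 2-fold apart and a median of 0.19. Meis1 had 128.6 on the Elongin A-/- array, against 113.8 on the Elongin A+/+ array, and Pbx3 had 61.2, against 49.97. Of 17 upstream activators, 11 were named and 6 measured, of which 2 were at least 2-fold lower and 0 higher, where 5.97% of all measured genes were lower and 6.76% higher. Wnt3a, a signal of the posterior growth zone, had 2.61 in Elongin A-/- and 8.72 in Elongin A+/+, and Cdx2, a caudal-type factor, had 0.783, under the floor, and 2.91. Cdx1 and Cdx4 were below the floor on both arrays. The retinoic acid receptor gene Rarb had 2.73 in Elongin A-/- and 3.45 in Elongin A+/+, and Rarg had 1.98 and, under the floor, 0.481. Cdx2 passed the floor through the Elongin A+/+ array alone and Rarg through the Elongin A-/- array alone, so their directions were fixed by the filter. The difference of Rarb, -0.34, was inside the probe SD, which leaves Wnt3a as the called activator above the floor on both arrays.

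Chromatin regulators of the clusters that could be measured were mostly within 2-fold. Of 12 MLL/COMPASS and trithorax genes, 6 were named and 5 measured, with none at least 2-fold apart and a median of -0.31. Kmt2a, Kmt2b and Men1 were among those not named, and Rbbp5 was below the floor on both arrays, so nothing is known of them here. Psip1, which tethers MLL to chromatin, had 18.0 in Elongin A-/- and 30.8 in Elongin A+/+. Of 18 Polycomb genes, 15 were named and 13 measured, with 1 at least 2-fold lower, 0 higher and a median of -0.09. The lower one was Phc3, a subunit of the PRC1 complex, with 0.659, under the floor, and 2.33. Ezh2, the histone H3 lysine 27 methyltransferase, had 54.9 in Elongin A-/- and 96.2 in Elongin A+/+, and it also lies on chromosome 6. The share of Polycomb genes at least 2-fold lower, 1 of 13, was near the 5.97% of all measured genes.

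The targeted gene and cell type markers were read on the same arrays, and counts of markers are at 2-fold, where 5.97% of all measured genes were lower and 6.76% higher. Eloa, which encodes Elongin A, had 3.57 on the Elongin A-/- array and 3.87 on the Elongin A+/+ array, and since it is not known here whether its probe lies in the deleted part, it checks nothing about the labels. Neural progenitor markers had a summed intensity of 321 in Elongin A-/- and 259 in Elongin A+/+ over 10 named genes, with 2 lower and 1 higher. Of those, Sox1, counted lower, passed the floor through the Elongin A+/+ array alone. The list was split, with 5 genes below 0 and 5 above. Its brightest genes in Elongin A-/-, Hes5 (124.7, against 75.6 in Elongin A+/+) and Irx3 (113.5 and 45.5), were higher. Sox2 (39.5 and 72.2) and Fabp7 (7.37 and 30.6) were lower. After each chromosome's median was removed, Irx3, the gene counted higher, had 0.89, short of 2-fold, and Fabp7 had -1.99. Neuronal markers summed to 236 and 344 over 9 genes, with 2 of 7 measured lower, Isl1 (2.24 and 10.03) and Stmn2 (25.1 and 82.3). Tubb3, the brightest of them, was nearly level (168.3 and 178.7). Below 0 were 6 of the 7 and above it 1. Nefm passed the floor through the Elongin A+/+ array alone and Dcx, the 1 above 0, through the Elongin A-/- array alone. Map2 and Syp were under the floor on both arrays. Mesoderm markers summed to 149.6 and 38.7 over 9 genes, with 5 of 5 measured higher, each above the floor on both arrays. The widest was Kdr (54.4 in Elongin A-/- and 2.23 in Elongin A+/+). After each chromosome's median was removed, Kdr, Osr1, Foxc2 and Tcf21 stayed at least 2-fold higher, and Meox1, on chromosome 11, had 0.70, short of 2-fold. Mesp1, Tbx6, Hand1 and Eomes were under the floor on both, and T was not named. Blood and endothelial markers summed to 98.0 and 7.79 over 10 genes, with 6 of 7 measured higher and Cdh5, Tie1 and Gata1 under the floor on both. Of those 6, only Cldn5 was above the floor on both arrays, and the other 5 passed through the Elongin A-/- array alone and had to be higher. Endoderm markers summed to 37.3 and 20.2 over 8 genes, with 2 of 7 measured lower and 2 higher. Both lower ones, Afp and Cxcr4, passed through the Elongin A+/+ array alone and Ttr, counted higher, through the Elongin A-/- array alone, so of these Sox7 was the one above the floor on both. Pluripotency markers summed to 37.6 and 41.6 over 7 genes, with 1 of 6 measured lower. The part of these marker differences in the Hoxa differences was not tested.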

How the data were processed

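Per the labels' protocols, total RNA of 1 sample per genotype was transcribed into digoxigenin-labelled RNA copies. The deposited values are array intensities on a linear scale, with medians of 1.03 (Elongin A-/-) and 1.02 (Elongin A+/+). The authors' normalisation and filters were not given in the sources used here. Probes were named from the platform annotation, and only the 14253 probes with 1 symbol were used. Percentiles of the arrays differed by as much as -0.16 on the log2 scale (Elongin A-/- minus Elongin A+/+), beyond the limit of 0.1, so log2 values were quantile normalised. Where a gene had more than 1 probe the brightest stood for it. Gene order and upstream bases came from RefSeq tables of GRCm38.p6. No build is named for the array, so RefSeq coordinates are printed for those upstream bases only. The members, lists, motif letters and settings were chosen with earlier results of these data known. Named genes were all Hox genes, up to 4 of the widest differences per list with some fixed regulators, the next and the widest flanking genes, and the 3 nearest to the member that differed most. The text does not name all of them. There was no test, and a 2-fold size was used. The analysis was tested on simulated data, with effects planted only in genes of 1 probe well above the floor. Effects in genes near the floor and shifts of a whole chromosome were not simulated. Python 3.11.15, pandas 2.3.3 and statsmodels 0.14.6 were used.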

Additional observations from a re-analysis of the deposited data

How the results depend on the processing

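No paired analysis was possible because each genotype had 1 array. There were 10 other settings, 9 of scaling, floor and probes and the subtraction of chromosome medians, which was chosen after seeing the data. Under them the log2 difference of Hoxa7 stayed between -3.09 and -2.79. With 1 probe per member, the probe settings could not change the value of any member. Hoxa5 and Hoxa7 lay above each floor on both arrays, so moving or leaving out the floor could not change theirs either. Hoxa9 ran between -3.04 and -1.40 and Hoxa10 between -3.41 and -1.13, each over the 9 settings that measured it. Both were at least 2-fold lower in all 9, with the widest values where no floor was set. With the floor at the 75th percentile they were not measured, 4 members remained, and the number at least 2-fold lower was 1, because fewer genes passed. These posterior differences therefore depend on dim signal. Hoxa3 and Hoxa5 kept their sign under all 10, and Hoxa2 had 0.03 after the chromosome median was removed. Over all genes the counts at 2-fold depended on the floor: a 25th-percentile floor gave 980 lower and 1075 higher, leaving out the floor gave 982 lower and 1080 higher, and a 75th-percentile floor gave 118 lower and 141 higher. Signal over background limits Hoxa6, Hoxa9, Hoxa10, Hoxa11 and Hoxa13, which were under the floor on at least 1 array.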
